A study of Mus musculus with 6 samples.

Results

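The nuclear genes of the mitochondrial respiratory chain and of ATP synthase were examined in RAW 264.7 cells, an established mouse macrophage line, exposed either to bisphenol AP (BPAP), a compound related to bisphenol A, or to the solvent DMSO alone. The members were all genes of the deposited table whose symbol begins with Nduf, Uqcr, Cox4 to Cox8 or Atp5, together with Sdha to Sdhd, Cyc1 and Cycs. Symbols that mark a pseudogene with "-ps" were left out, which removed 4 entries. This gave 94 of the 34745 genes in the table: 36 subunits and 8 assembly factors of complex I, 4 subunits of complex II, 10 genes of complex III and cytochrome c, 20 genes of complex IV and 16 genes of ATP synthase (complex V). There were 3 DMSO libraries and 3 BPAP libraries of otherwise unmodified cells of this line, and the series title places the work in a study of bleomycin-induced lung fibrosis and macrophage function. The sources used here do not give the dose of BPAP, the exposure time or whether the 3 libraries of a group came from separate cultures. P-values therefore reflect the variation among these 6 libraries, which can be technical.

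The respiratory chain sits in the inner mitochondrial membrane. Complexes I and II pass electrons from NADH and succinate to ubiquinone, complex III passes them on to cytochrome c, and complex IV (cytochrome c oxidase) passes them to oxygen. Complexes I, III and IV pump protons as they do so, and complex V uses the returning protons to make ATP. Complexes I, III, IV and V join subunits encoded in the nucleus with others encoded in mitochondrial DNA, whereas complex II is encoded in the nucleus alone. In macrophages the balance between respiration and glycolysis is known to shift with activation, and succinate dehydrogenase stands at the meeting point of the citric acid cycle and the chain.

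The libraries held between 11084705 and 13806559 counts. Of the macrophage markers, 9 of 10 could be tested, Mertk was at 0 in every library, and the summed level of the markers was 4551 to 5168 CPM (counts scaled to a common library size) in DMSO and 5078 to 5493 CPM in BPAP. Of these 9 markers, 5 were higher and 2 lower in BPAP in the test described below, at a median log2 fold change of 0.33. Over all tested genes, 16.2% were higher and 15.5% were lower. With the trend with exon length and GC content removed, 2 markers were higher and 1 lower, at a median of 0.02. The summed levels of fibroblast, epithelial and lymphocyte markers were at most 1.06, 0.0814 and 0.164 CPM in any library. The 13 mitochondrially encoded protein genes took 10.8% of all counts in DMSO replicate 1, 7.02% and 7.35% in DMSO replicates 2 and 3, and 6.53% to 7.55% in the BPAP libraries. In such bulk samples, fewer cells expressing a gene and less of its RNA per cell cannot be told apart.

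Of the 94 members, 89 had enough counts for a test. Cox6b2, Cox7b2, Cox8b and Cox8c, genes of tissue-restricted cytochrome c oxidase subunits, had no count in any library. A count of 0 allows up to 3 counts, which is 0.271 CPM at the lowest depth and 0.217 CPM at the highest. Ndufa4l2 had at most 4 counts in a library. Levels per gene length, given here as mean deposited FPKM in DMSO (fragments scaled by gene length and library depth), ranged over the tested members from 0.631 ± 0.172 (SD, n = 3) for Atp5g1 to 609 ± 15.3 (SD, n = 3) for Cox8a. After Cox8a came Cox6b1 at 263 ± 4.34, Cox6a1 at 219 ± 9.84, Cox7a2l at 204 ± 34.2 and Atp5b at 194 ± 17.1 (SD, n = 3 each). Cox6a1, Cox7a2l and Atp5b did not differ beyond the spread of Cox7a2l. The length behind the deposited FPKM was 0.0793 to 2.46 times the merged exon length of the tested members, with a median of 1.33, so the order of levels depends on it. How reads matching more than 1 gene were handled is not known from the sources used here, and it bears on small genes with processed copies elsewhere in the genome. Low values such as 1.299 ± 0.272 FPKM (SD, n = 3) for Cycs and 1.92 ± 0.18 FPKM (SD, n = 3) for Cox7c may not be the level of all transcripts of these genes.

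The main comparison asked which of these genes differed between BPAP and DMSO. With edgeR's quasi-likelihood test and Benjamini-Hochberg adjustment over the 11711 genes tested, at an adjusted p of 0.05, 52 of the 89 tested members were higher in BPAP (58.4%) and 0 were lower, while 37 did not pass. Over all tested genes, 16.2% were higher and 15.5% were lower. The median log2 fold change (BPAP minus DMSO) was 0.42 over the members and 0.02 over all tested genes. The members' values ran from -0.69 to 1.10, and 81 of the 89 were above 0. All 3 BPAP values lay above all 3 DMSO values for 63 members (70.8%), against 25.2% of all tested genes, and these 63 included every member that passed the test. The changes were modest in size. Of the 52 members called, 25 rose at least 1.5-fold and 2 at least 2-fold (Uqcrq and Cox6a2), the median fold was 1.48 and the smallest was 1.25. Of the 8 members with a negative log2 fold change, 1 had an unadjusted p under 0.05, and the lowest adjusted p among them was 0.0742, for Ndufs1. DESeq2 and limma-voom also called 0 members lower, while some of the 16 alternative settings called 1 lower, Cox7c or Ndufs1, as given below. The gene spans of 27 tested members overlap that of another gene, and of the 62 that do not, 34 were higher.

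**Figure D1:**
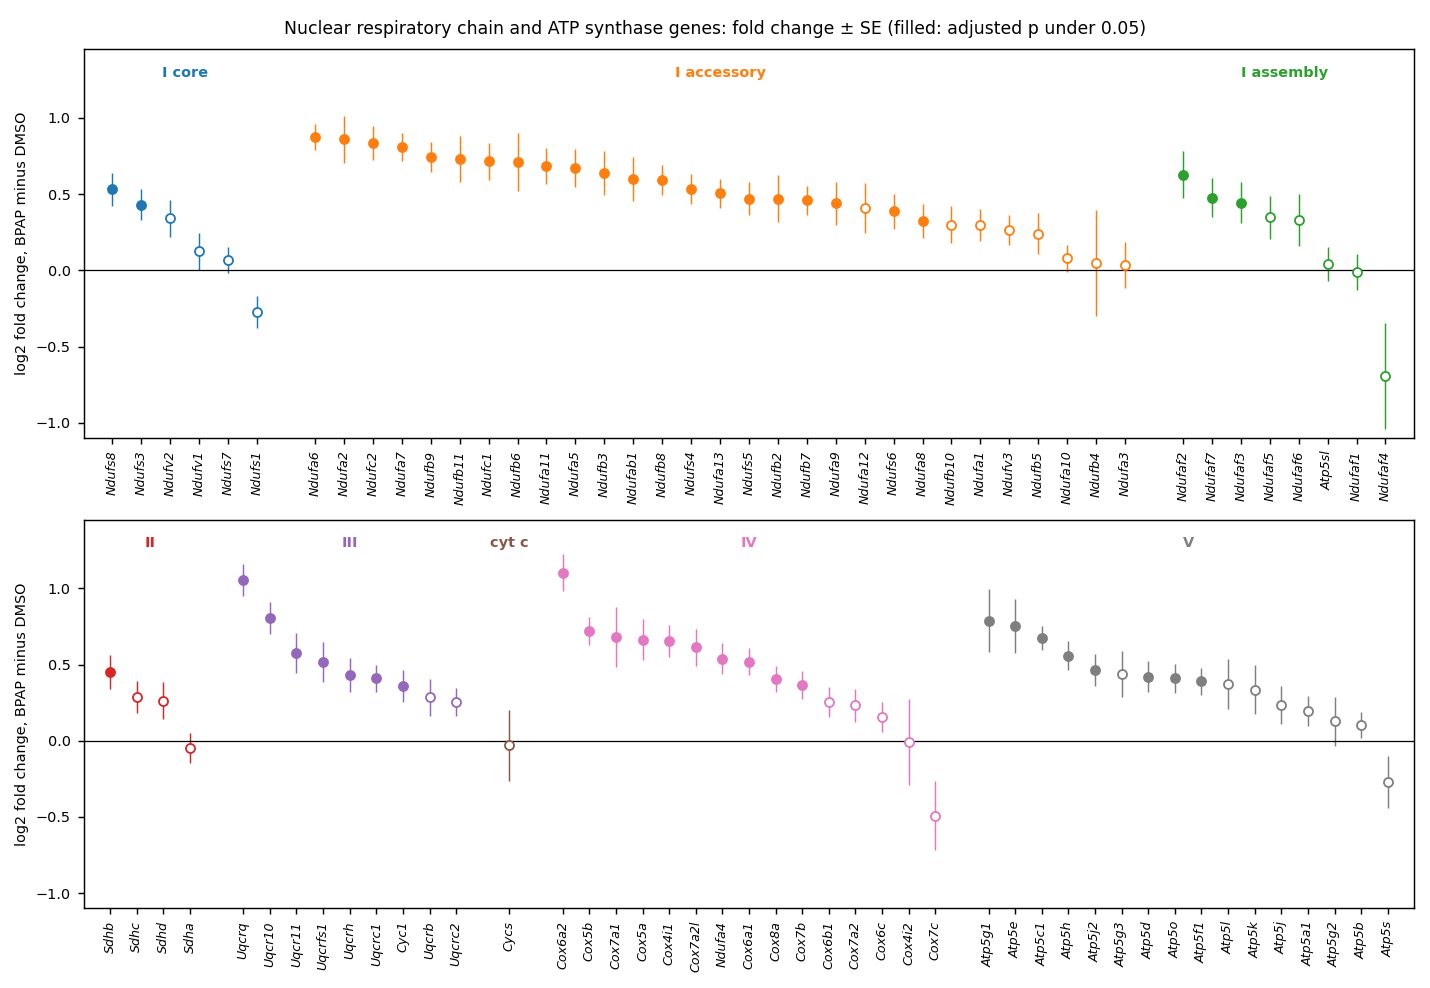
Log2 fold change (BPAP minus DMSO) with its standard error for 88 of the 89 tested members, ordered by size within each complex; filled points passed an adjusted p of 0.05 and open points did not. The accessory subunits of complex I all lie above 0, while 4 of the 6 core subunits drawn, 3 of the 4 complex II genes and Cycs are open points.

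The rise was visible in each BPAP library and not in 1 alone. The median over the 89 members of the log2 level relative to the DMSO mean was 0.33, 0.53 and 0.41 in BPAP replicates 1 to 3. It was -0.09, 0.02 and 0.05 in DMSO replicates 1 to 3. The summed counts of the 94 members made up 0.847%, 0.943% and 0.963% of the DMSO libraries, 0.918% ± 0.0618 (SD, n = 3). They made up 1.08%, 1.24% and 1.16% of the BPAP libraries, 1.16% ± 0.0784 (SD, n = 3). DMSO replicate 1, with the highest share of mitochondrially encoded counts, had the lowest share of the nuclear members. Without the mitochondrially encoded counts in the total, the shares were 1.00% ± 0.0459 in DMSO and 1.24% ± 0.0776 in BPAP (SD, n = 3 each), and the groups still did not overlap.

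**Figure D2:**
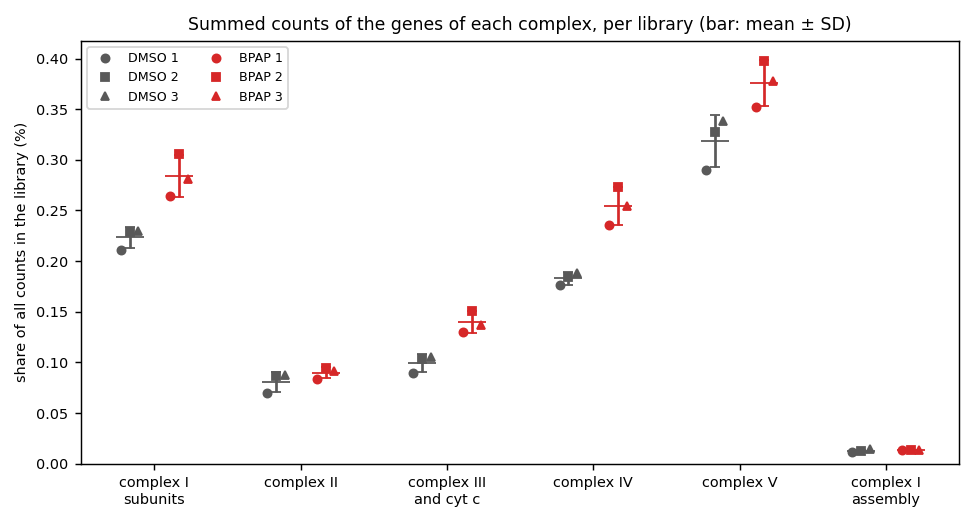
Share of all counts of a library taken by the genes of each complex, in percent, with a point for each of the 3 DMSO and 3 BPAP libraries and bars for the mean ± SD. The BPAP points lie above the DMSO points for the complex I subunits, complex III with cytochrome c, complex IV and complex V, and the groups overlap for complex II and the complex I assembly factors.

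Genes that differ in exon length moved differently in this comparison, and the members are short. Their median merged exon length was 1789 bases, against 4296 bases over all tested genes, and 82 of the 89 lay below that median. In the shortest of 5 length classes of the tested genes (53 to 2324 bases), 33.7% of all genes were higher in BPAP and the median log2 fold change was 0.29. The 62 members in that class had a median of 0.44, and 41 of them were higher. In the longest class (7367 to 123179 bases) only 4.28% of all genes were higher and the median was -0.23. The only member there, Ndufs1, had a log2 fold change of -0.27. Across the 89 members, log2 fold change and log2 exon length had a Pearson r of -0.30 and a Spearman rho of -0.29. For GC content the values were 0.20 and 0.14. The members share the same 6 libraries, so this is a description.

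**Figure D3:**
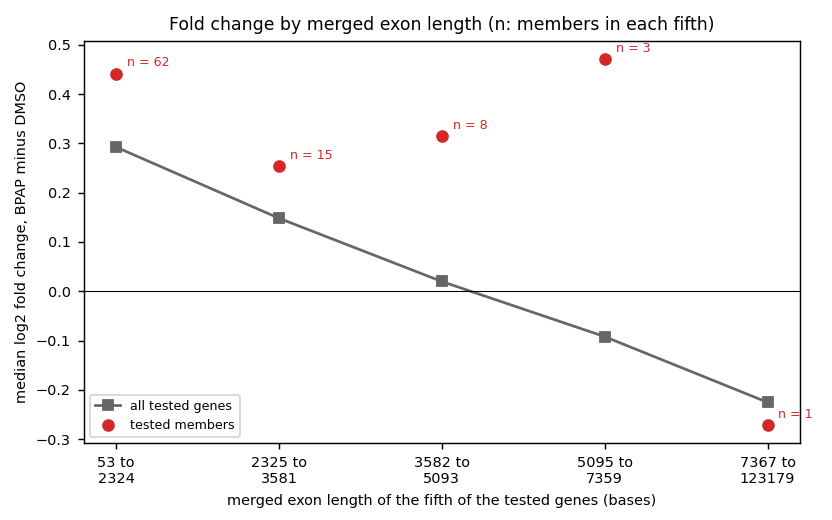
Median log2 fold change (BPAP minus DMSO) in 5 equal classes of the tested genes by merged exon length in bases, for all tested genes (squares) and for the members in that class (circles, with their number). All tested genes fall from 0.29 in the shortest class to -0.23 in the longest, and the members lie above all genes in the 4 shortest classes, of which the longest holds 3 members.

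Because of this trend, the fold changes and their tests were also computed with the dependence on exon length and GC content taken out of each library. This was not done for the levels, medians and shares given per library. With the trend taken out, the members' median log2 fold change fell from 0.42 to 0.17, against 0.01 over all genes. Of the 89 members 26 (29.2%) were higher and 1, Cox7c, was lower, against 11.8% and 10.9% of all 11665 genes with a GC value. Of the 26, 25 were also called without the correction and Atp5l was not, so 27 of the 52 calls were lost. A value above 0 was found in 64 of the 89. In the shortest class the members' median was then 0.17 and that of all genes was -0.00. Whether the trend is technical was not tested.

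**Figure D4:**
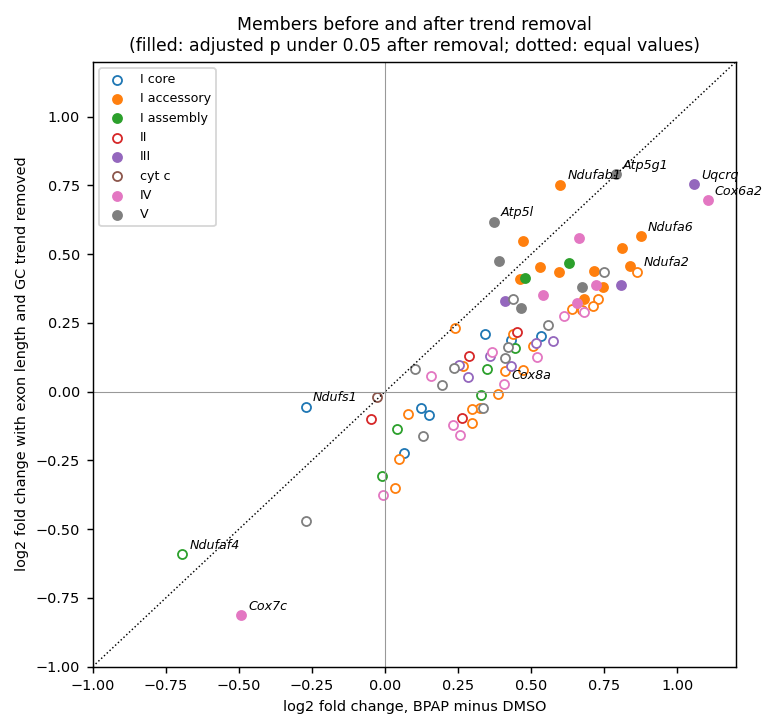
Log2 fold change of each of the 89 tested members before (horizontal axis) and after (vertical axis) removal of the trend with exon length and GC content, coloured by class; filled points passed an adjusted p of 0.05 after removal and the dotted line marks equal values. Most points lie below the line, Uqcrq and Cox6a2 stay among the highest, and Cox7c is the filled point below 0.

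Complex I was the largest group. The accessory (supernumerary) subunits surround the catalytic core and are needed for its assembly and stability. All 29 accessory genes had a log2 fold change above 0, with a median of 0.51. Of the 29, 21 were higher in BPAP, against 16.2% of all tested genes. By family, 8 of 12 Ndufa genes, 7 of 10 Ndufb genes and all 3 of Ndufc1, Ndufc2 and Ndufab1 were higher. The last of these encodes the mitochondrial acyl carrier protein. After removal of the length and GC trend, 11 accessory genes were higher, against 11.8% of all genes.

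Ndufa6 (ENSMUSG00000022450, chr15:82350139-82354291, GRCm38) encodes an LYR-motif subunit that anchors the acyl carrier protein. Its level was 59.5, 63.3 and 64.5 CPM in DMSO and 112, 121 and 111 CPM in BPAP. The BPAP values sat well above every DMSO value, and the log2 fold change was 0.87 ± 0.09 (SE, adjusted p = 0.000421). With the trend removed it was 0.57 (adjusted p = 0.00155).

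Ndufa7 rose from 72.8, 70.9 and 72.1 CPM in DMSO to 116, 135 and 128 CPM in BPAP (log2 fold change 0.81 ± 0.09 SE, adjusted p = 0.000545). Ndufc2, a small membrane-arm subunit, rose from 40.3, 49.1 and 50.4 CPM to 77.6, 89.8 and 82.7 CPM (0.84 ± 0.11 SE, adjusted p = 0.000939). Ndufb9, another LYR-motif subunit, rose from 49.7, 54.3 and 53.9 CPM to 79.7, 90.1 and 95.2 CPM (0.75 ± 0.10 SE, adjusted p = 0.000925). In each of these genes the lowest BPAP library stood clear of the highest DMSO library. Ndufb8, whose protein is widely used as a marker of assembled complex I, rose from 81.3, 76.9 and 72.5 CPM to 111, 130 and 108 CPM (0.59 ± 0.10 SE, adjusted p = 0.00246). Of the accessory genes, Ndufa6, Ndufa7, Ndufa11, Ndufb7, Ndufb8, Ndufb9, Ndufc1, Ndufc2 and Ndufs4 passed under all 16 alternative settings. Ndufa8, with a main adjusted p of 0.0497, passed in only 2 of the 16. Its value fell to -0.06 after trend removal (adjusted p = 0.678).

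Among the accessory genes that did not pass, Ndufa3 and Ndufb4 had the largest p. Ndufa3 stood at 56.9, 39.7 and 36.8 CPM in DMSO and 46.4, 44.1 and 45.9 CPM in BPAP, a log2 change of 0.04 ± 0.15 (SE, adjusted p = 0.874). Ndufb4 stood at 17.5, 8.45 and 6.48 CPM in DMSO and 12.3, 10.7 and 10.3 CPM in BPAP, a log2 change of 0.05 ± 0.35 (SE, adjusted p = 0.926). In both genes DMSO replicate 1 was the highest of the 6 libraries and the BPAP values lay between the DMSO values.

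The 7 nuclear core subunits carry the flavin, the iron-sulfur clusters and the path of electrons to ubiquinone. Of these, 2 of the 7 were higher in BPAP, against 16.2% of all tested genes. With the trend removed 0 of the 7 were higher, at a median log2 change of -0.05, against 11.8% of all genes. The difference between core and accessory genes was not tested, and the core genes are longer, with a median exon length of 2178 bases against 1251 bases. Ndufs8, which carries iron-sulfur clusters near the ubiquinone site, rose from 92.1, 90.1 and 82.0 CPM in DMSO to 111, 144 and 127 CPM in BPAP (0.53 ± 0.11 SE, adjusted p = 0.00553). Ndufs3 rose from 48.2, 54.5 and 59.7 CPM to 70.8, 77.6 and 70.8 CPM (0.43 ± 0.10 SE, adjusted p = 0.0113). In neither gene did the groups overlap. Both calls were lost with the trend removed (adjusted p = 0.118 and 0.155).

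Among the core genes that did not pass, Ndufv2 had a log2 change of 0.34 ± 0.12 (SE, adjusted p = 0.0562), with 88.6, 66.3 and 69.9 CPM in DMSO and 89.7, 105 and 89.98 CPM in BPAP. Ndufv1 (the flavoprotein that takes electrons from NADH) and Ndufs7 had values of 0.12 ± 0.12 and 0.07 ± 0.09 (SE). Their adjusted p-values were 0.463 and 0.583, and their groups overlapped. Ndufs1, the largest core subunit, stood at 176, 204 and 217 CPM in DMSO and 167, 148 and 179 CPM in BPAP. Its log2 fold change was -0.27 ± 0.11 (SE, adjusted p = 0.0742). It passed as lower without DMSO replicate 1 (adjusted p = 0.0326) and with a term for the replicate number (adjusted p = 0.0461), and it was -0.05 with the trend removed (adjusted p = 0.707). The gene overlaps Eef1b2, a far more abundant gene on the opposite strand, and the sources used here do not give the strand setting.

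The 8 assembly factors of complex I are not part of the finished enzyme. Their levels were low, with a median of 5.34 FPKM in DMSO, and 3 of 8 were higher, against 16.2% of all tested genes. With the trend removed 2 of 8 were higher, at a median log2 change of 0.03, against 11.8% of all genes. Ndufaf2, a chaperone of late assembly, rose from 5.87, 5.32 and 5.56 CPM to 8.46, 7.99 and 9.43 CPM (0.63 ± 0.16 SE, adjusted p = 0.013). Ndufaf7, a mitochondrial methyltransferase, rose from 14.4, 14.4 and 17.9 CPM to 22.6, 20.97 and 21.6 CPM (0.48 ± 0.13 SE, adjusted p = 0.017). Ndufaf3 rose from 13.5, 12.0 and 13.0 CPM to 15.1, 18.6 and 18.5 CPM (0.44 ± 0.13 SE, adjusted p = 0.0289). The groups did not overlap in these 3 genes, but none of the calls held without each library in turn. Ndufaf2 was lost without DMSO replicate 2 (adjusted p = 0.0527), and under the trend removal with a replicate term (0.0601). Ndufaf7 was lost without DMSO replicate 1 (0.0674), DMSO replicate 2 (0.0705) or BPAP replicate 1 (0.0521). Ndufaf3 was lost with the trend removed (0.388) and without any of 5 libraries, all but BPAP replicate 1 (adjusted p 0.0594 to 0.105).

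Ndufaf1 and Atp5sl, a factor also known as Dmac2 despite its symbol, had the largest p of the assembly factors. Ndufaf1 stood at 14.3, 13.1 and 13.9 CPM in DMSO and 13.3, 13.9 and 13.78 CPM in BPAP (-0.01 ± 0.12 SE, adjusted p = 0.952). Atp5sl stood at 38.6, 35.4 and 31.3 CPM and 36.7, 34.2 and 37.4 CPM (0.04 ± 0.11 SE, adjusted p = 0.796). Ndufaf4 had the lowest value of any member, -0.69 ± 0.35 (SE, adjusted p = 0.175). Its DMSO values were 11.7, 14.6 and 30.0 CPM and its BPAP values were 12.6, 11.9 and 10.5 CPM, so DMSO replicate 3 stood apart from the other 5 libraries.

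Complex II has 4 genes, all encoded in the nucleus, of which 1 was higher, against 16.2% of all tested genes. Sdhb, the iron-sulfur subunit (ENSMUSG00000009863, chr4:140961203-140979193, GRCm38), was the only 1 of its 4 genes to pass. Its level was 66.3, 73.6 and 78.1 CPM in DMSO and 90.2, 113 and 94.7 CPM in BPAP, with a log2 change of 0.45 ± 0.11 (SE, adjusted p = 0.0125). The call was lost with the trend removed (adjusted p = 0.113), also with the replicate term added to it (0.0919), and without DMSO replicate 1 (0.0571).

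Sdhc and Sdhd encode the membrane anchors that bind heme and ubiquinone. Sdhc stood at 199, 251 and 236 CPM in DMSO and 264, 307 and 266 CPM in BPAP (0.29 ± 0.11 SE, adjusted p = 0.0626), and Sdhd at 163, 210 and 213 CPM and 206, 257 and 241 CPM (0.26 ± 0.12 SE, adjusted p = 0.122). Sdha, the flavoprotein that oxidises succinate, stood at 280, 315 and 320 CPM in DMSO and 290, 267 and 328 CPM in BPAP (-0.05 ± 0.10 SE, adjusted p = 0.736). The groups were separate for Sdhc and overlapped for Sdhd and Sdha. With a term for the replicate number, Sdhc and Sdhd also passed, and with upper quartile factors Sdhc did.

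In complex III and cytochrome c, 7 of 10 genes were higher, at a median log2 change of 0.42, and 3 with the trend removed. Among all genes, 16.2% and 11.8% were higher in these 2 fits. Uqcrq (ENSMUSG00000044894, chr11:53427922-53430831, GRCm38), a small subunit beside cytochrome b, was at 134, 153 and 145 CPM in DMSO and 266, 338 and 295 CPM in BPAP. The groups lay far apart, and the log2 fold change was 1.06 ± 0.11 (SE, adjusted p = 0.000421), a 2.08-fold rise. With the trend removed it was 0.75 (adjusted p = 0.0011). Uqcr10, another small subunit, rose from 44.5, 45.0 and 45.4 CPM to 71.0, 89.5 and 75.7 CPM (0.81 ± 0.11 SE, adjusted p = 0.000863). Uqcrc1, a core protein related to mitochondrial processing peptidases, rose from 126, 133 and 135 CPM to 170, 190 and 164 CPM (0.41 ± 0.09 SE, adjusted p = 0.00735). These 3 genes passed under all 16 alternatives.

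Among the other genes of complex III, Uqcrfs1, the Rieske iron-sulfur protein, rose from 92.7, 125 and 131 CPM to 153, 179 and 167 CPM (0.52 ± 0.13 SE, adjusted p = 0.0133). Cyc1, the cytochrome c1 heme protein, rose from 79.6, 91.9 and 89.9 CPM to 101, 125 and 109 CPM (0.36 ± 0.10 SE, adjusted p = 0.0257). Uqcr11 rose from 24.0, 26.1 and 27.2 CPM to 33.9, 45.7 and 35.4 CPM (0.57 ± 0.13 SE, adjusted p = 0.0094). The 3 calls were lost with the trend removed (adjusted p = 0.277 for Uqcrfs1, 0.292 for Cyc1 and 0.244 for Uqcr11). That of Cyc1 was also lost in limma-trend on FPKM (0.0537), without any of the 3 DMSO replicates (0.102, 0.0513 and 0.057) and without BPAP replicate 2 (0.0506).

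Uqcrb, which contacts the ubiquinone site, and Cycs, the soluble carrier between complexes III and IV, had the largest p here. Uqcrb stood at 90.3, 69.7 and 67.8 CPM in DMSO and 94.3, 85.6 and 97.3 CPM in BPAP (0.28 ± 0.12 SE, adjusted p = 0.0937). Cycs stood at 3.86, 5.71 and 4.79 CPM and 5.21, 3.41 and 5.50 CPM (-0.03 ± 0.23 SE, adjusted p = 0.934), and its groups overlapped throughout.

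In complex IV, 10 of the 15 tested genes were higher, at a median log2 change of 0.52, and 5 remained higher with the trend removed. Among all genes, 16.2% and 11.8% were higher in these 2 fits. Cox6a2 (ENSMUSG00000030785, chr7:128205435-128206387, GRCm38) encodes the isoform of subunit 6A best known from heart and skeletal muscle. Its level was 41.4, 31.6 and 30.5 CPM in DMSO and 77.2, 71.8 and 73.0 CPM in BPAP. The lowest BPAP library was well above the highest DMSO library, and the log2 change of 1.10 ± 0.12 (SE, adjusted p = 0.000545), or 2.15-fold, was the largest of all 89 tested members in this fit. With the trend removed it was 0.70 (adjusted p = 0.00666), below Atp5g1, Uqcrq and Ndufab1 (0.79, 0.75 and 0.75). The striated muscle markers Myh7 and Acta1 were at 0 in every library, and Myh6, Ckm, Myh7 and Acta1 together reached at most 0.634 CPM.

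Cox5b, a zinc-binding subunit, rose from 93.6, 104 and 110 CPM to 162, 179 and 166 CPM (0.72 ± 0.09 SE, adjusted p = 0.000803). Cox4i1, the common isoform of subunit 4, rose from 309, 288 and 297 CPM to 420, 546 and 443 CPM (0.66 ± 0.11 SE, adjusted p = 0.0021). Ndufa4, first assigned to complex I and now counted with complex IV, rose from 27.3, 27.4 and 26.7 CPM to 37.2, 38.0 and 43.0 CPM (0.54 ± 0.10 SE, adjusted p = 0.00425). Like Cox6a2 and Cox5a, these 3 genes passed under all 16 alternatives.

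Cox8a, Cox6b1 and Cox6a1 are also subunits of complex IV. Cox6a1 rose from 277, 254 and 242 CPM to 354, 389 and 367 CPM (0.52 ± 0.09 SE, adjusted p = 0.00237), and Cox8a from 330, 334 and 322 CPM to 399, 442 and 466 CPM (0.41 ± 0.09 SE, adjusted p = 0.00657). With the trend removed, both calls were lost, with log2 fold changes of 0.12 and 0.03 (adjusted p = 0.256 and 0.842). Cox6b1 stood at 133, 132 and 130 CPM in DMSO and 139, 177 and 156 CPM in BPAP (0.26 ± 0.10 SE, adjusted p = 0.0721), and its groups did not overlap.

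Cox6c and Cox4i2 had the largest p in complex IV, with log2 fold changes of 0.16 ± 0.10 and -0.01 ± 0.28 (SE, adjusted p = 0.238 and 0.984). Cox4i2, the isoform of subunit 4 known for its response to low oxygen, was near the limit of the data at 1.10, 1.72 and 1.83 CPM in DMSO and 1.46, 1.66 and 1.56 CPM in BPAP. All BPAP values lay below all DMSO values in 2 of the 89 tested members, Cox7c and Atp5s. The share of all tested genes separated in this direction is not given here. Cox7c stood at 3.58, 2.97 and 3.52 CPM in DMSO and 2.85, 2.33 and 1.97 CPM in BPAP (-0.49 ± 0.23 SE, adjusted p = 0.122). It passed as lower with the trend removed (-0.81, adjusted p = 0.0289), with the replicate term added to that (-0.83, 0.0314) and in limma-trend on FPKM (-0.33, 0.0447).

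In complex V, 8 of 16 genes were higher, at a median log2 change of 0.40, and 5 of 16 with the trend removed. Among all genes, 16.2% and 11.8% were higher in these 2 fits. Atp5c1, the central gamma stalk (ENSMUSG00000025781, chr2:10056016-10080510, GRCm38), rose from 216, 207 and 221 CPM in DMSO to 331, 337 and 361 CPM in BPAP (0.67 ± 0.08 SE, adjusted p = 0.000657). The alpha and beta subunits that form the head had the highest counts of any member and did not pass. Atp5a1 stood at 652, 775 and 765 CPM in DMSO and 784, 888 and 839 CPM in BPAP (0.20 ± 0.10 SE, adjusted p = 0.143). Atp5b stood at 1226, 1383 and 1372 CPM and 1350, 1459 and 1469 CPM (0.10 ± 0.09 SE, adjusted p = 0.394). The groups were separate by a narrow gap for Atp5a1 and overlapped for Atp5b.

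The delta and epsilon genes of the central stalk, Atp5d and Atp5e, also rose, at 0.42 ± 0.10 and 0.75 ± 0.18 (SE, adjusted p = 0.0121 and 0.0134). Both calls were lost with the trend removed (0.174 and 0.0864), and that of Atp5e also without DMSO replicate 1 (0.0515) or BPAP replicate 2 (0.0643). They stand here because they complete the head and stalk, and were chosen after their values were seen.

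In the stalk and membrane parts, Atp5h (subunit d) rose from 59.3, 68.6 and 66.2 CPM to 88.5, 99.9 and 97.8 CPM (0.56 ± 0.10 SE, adjusted p = 0.00271). Atp5j2 (subunit f) rose from 78.6, 94.4 and 94.4 CPM to 112, 127 and 130 CPM (0.46 ± 0.10 SE, adjusted p = 0.00874). Atp5f1 (subunit b) rose from 240, 209 and 241 CPM to 283, 314 and 306 CPM (0.39 ± 0.09 SE, adjusted p = 0.00973). Each of the 3 had separate groups. Atp5o, the oligomycin sensitivity protein that ties the stator to the head, rose from 111, 111 and 127 CPM to 154, 168 and 142 CPM (0.41 ± 0.10 SE, adjusted p = 0.0113). The call of Atp5h was lost with the trend removed (adjusted p = 0.0574). That of Atp5o was lost with the trend removed (0.326) and without DMSO replicate 1 (0.0507) or DMSO replicate 2 (0.0505). Atp5c1, Atp5j2 and Atp5f1 passed under all 16 alternatives.

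Several subunits are made from paralogous genes, and the share of each paralog within its family was computed per library from the FPKM values, with no test. Cox6a2 made up 20.7%, 17.9% and 18.1% of the summed Cox6a1 and Cox6a2 level in DMSO, 18.9% ± 1.59 (SD, n = 3). In BPAP its share was 27.7%, 24.5% and 25.8%, 25.98% ± 1.60 (SD, n = 3). The shares did not overlap between the groups. With merged exon lengths in place of the FPKM lengths the mean shares were 12.1% and 17.1%.

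In the COX7A family, Cox7a2l, which is known for its part in joining complex III with complex IV, made up 67.1% ± 2.98 in DMSO and 72.2% ± 0.975 in BPAP (SD, n = 3 each). Its level rose from 192, 247 and 254 CPM to 313, 381 and 367 CPM (0.61 ± 0.12 SE, adjusted p = 0.00497), a call that was lost with the trend removed (0.086). Cox7a2 had a share of 29.7% ± 2.38 in DMSO and 24.3% ± 1.03 in BPAP (SD, n = 3 each), and its own level did not pass (0.23 ± 0.11 SE, adjusted p = 0.126). Cox7a1, the muscle isoform, was at 3.76, 3.76 and 2.68 CPM in DMSO and 5.53, 5.24 and 5.50 CPM in BPAP (0.68 ± 0.20 SE, adjusted p = 0.0256). This call was lost in DESeq2 (0.0564), with the trend removed (0.303) and without DMSO replicate 3 (0.0977), BPAP replicate 1 (0.0627) or BPAP replicate 3 (0.0613).

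The c subunit, which forms the rotating ring of ATP synthase, has 3 genes with the same mature protein. Atp5g3 supplied 86.2% ± 1.83 of their summed FPKM in DMSO and 87.7% ± 0.970 in BPAP (SD, n = 3 each). Atp5g3 had a log2 change of 0.44 ± 0.15 (SE, adjusted p = 0.0516) and Atp5g2 of 0.13 ± 0.16 (SE, adjusted p = 0.568). Atp5g1, the least abundant, rose from 4.59, 7.75 and 5.99 CPM to 9.11, 10.4 and 12.3 CPM (0.79 ± 0.21 SE, adjusted p = 0.0161). That call was lost without DMSO replicate 1 (0.0567), DMSO replicate 3 (0.0526) or BPAP replicate 3 (0.0514). Other families rested on 1 gene: Cox4i1 held 98.8% ± 0.324 of the COX4 level in DMSO and 99.2% ± 0.0586 in BPAP (SD, n = 3 each).

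**Figure D5:**
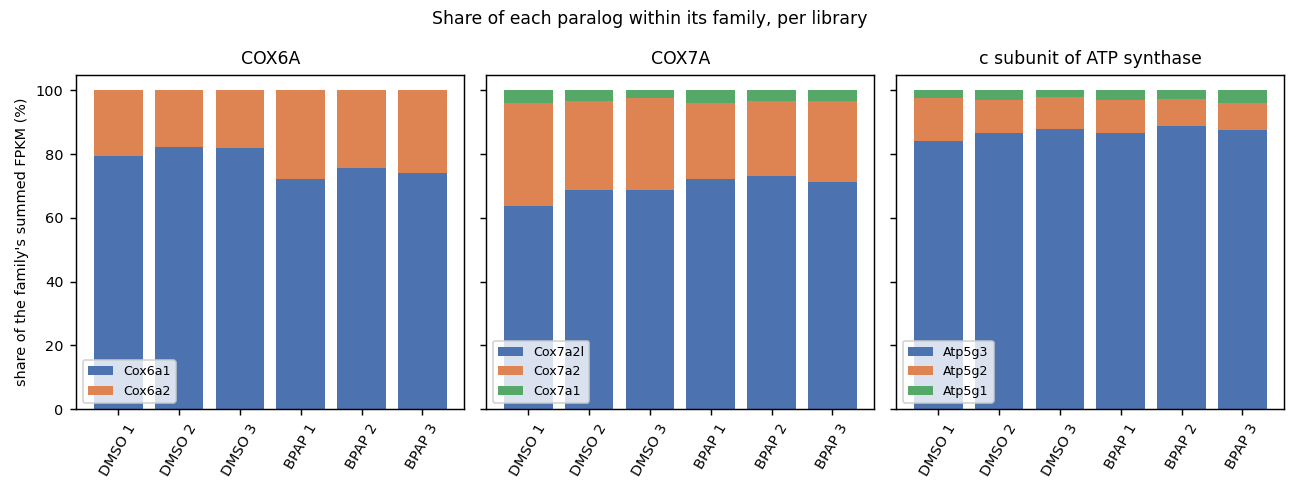
Share of each paralog in the summed FPKM of its family, in percent, stacked for each of the 3 DMSO and 3 BPAP libraries, for COX6A, COX7A and the c subunit of ATP synthase. The Cox6a2 block is larger in every BPAP library than in any DMSO library, while Atp5g3 holds 84.2% or more of its family in all 6.

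Many nuclear respiratory genes are known targets of the factor NRF1, whose site is built on the palindrome GCGCATGCGC. RefSeq promoter windows of 300 bases (250 before to 50 after the start, GRCm38.p6) matched 74 of the 94 members by symbol. The letters GCATGCGC, searched on both strands, were found in 13 of the 74 (17.6%), against 3.05% of 27025 genes with such a window. The 27025 genes, also used for the other motifs below, were not limited to genes expressed in these cells. They were found in 7 of 45 members higher in BPAP and in 6 of 26 tested members that did not pass. The following stretches of 100 bases are shown 5′ to 3′ on the strand of the gene, with GCATGCGC, or its palindrome where the match lies on both strands, in capitals. They were chosen to set 3 genes that rose beside Cycs and Ndufaf4, which did not.
Ndufa6, chr15:82354327-82354426, minus strand: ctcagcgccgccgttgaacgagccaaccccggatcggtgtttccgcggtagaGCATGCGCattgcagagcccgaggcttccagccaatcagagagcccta
Ndufa11, chr17:56717652-56717751, plus strand: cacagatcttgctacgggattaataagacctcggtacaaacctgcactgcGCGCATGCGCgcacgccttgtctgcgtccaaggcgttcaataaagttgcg
Cox6a1, chr5:115349071-115349170, minus strand: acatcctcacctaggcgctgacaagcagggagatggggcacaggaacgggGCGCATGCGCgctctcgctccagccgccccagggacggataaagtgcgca
Cycs, chr6:50566582-50566681, minus strand: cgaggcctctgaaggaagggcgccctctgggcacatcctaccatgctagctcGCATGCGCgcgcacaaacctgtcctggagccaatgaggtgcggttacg
Ndufaf4, chr4:24897920-24898019, plus strand: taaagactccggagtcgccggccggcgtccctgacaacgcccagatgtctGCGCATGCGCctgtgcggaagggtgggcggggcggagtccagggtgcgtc

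The capitals begin 83 bases before the RefSeq start in Ndufa6, 60 in Ndufa11 and in Cycs, 162 in Cox6a1 and 113 in Ndufaf4. The log2 fold changes of these chosen genes ran from 0.87 (Ndufa6) to -0.69 (Ndufaf4, adjusted p = 0.175, with DMSO replicate 3 apart from the other libraries). The call of Cox6a1 was lost with the trend removed (adjusted p = 0.256). Any part of NRF1 in these values was not tested. A match of letters describes the sequence and is not a binding site. Other motifs were searched in the same windows on both strands. AAGATGGC (YY1) was in 9 of the 74 (12.2%, against 3.19% of all genes), CCGGAAGT (ETS factors such as GABPA) in 5 (6.76%, against 4.31%) and TGACGTCA (CREB) in 5 (6.76%, against 2.03%). GGGCGGGG (SP1) was in 14 (18.9%, against 19.6%), TGACNNNGC (NFE2L2) in 11 (14.9%, against 14.0%), TCAAGGTCA (ESRRA) in 2 (2.70%, against 0.466%) and TGATGCAA (ATF4 with C/EBP) in 0 of 74 (against 1.03%).

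The genes around the chain were read from the same test. Of 43 assembly factors outside the member rule, 15 were higher and the other 28 did not pass, at a median log2 change of 0.35. Over all tested genes, 16.2% were higher. With the trend removed 10 were higher and 1 lower, against 11.8% and 10.9% of all genes. Uqcc2, which helps to assemble cytochrome b into complex III, rose from 29.9, 29.0 and 32.4 CPM in DMSO to 52.4, 70.3 and 57.9 CPM in BPAP (0.98 ± 0.12 SE, adjusted p = 0.000773). Coa6, which takes part in copper delivery to complex IV, rose from 3.67, 3.44 and 4.01 CPM to 7.24, 6.74 and 7.38 CPM (0.94 ± 0.17 SE, adjusted p = 0.0035). Sdhaf1, the iron-sulfur assembly factor of Sdhb, rose from 19.3, 20.3 and 18.2 CPM to 27.3, 28.8 and 29.3 CPM (0.56 ± 0.10 SE, adjusted p = 0.00385). In all 3 genes the BPAP libraries were separate from the DMSO libraries.

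Of 11 genes of ubiquinone synthesis and its carriers, 5 were higher, against 16.2% of all tested genes, with a median of 0.14. The count was 3 with the trend removed and 2 to 4 in the fits without 1 library, with 2 without DMSO replicate 1 or DMSO replicate 2. Coq9 had a log2 fold change of 0.55 ± 0.09, Coq10a of 0.51 ± 0.12 and Coq7 of 0.46 ± 0.12 (SE, adjusted p = 0.00175, 0.00977 and 0.0177). The call of Coq10a was lost with the trend removed (0.0805), and that of Coq7 without DMSO replicate 1 (0.0641) or DMSO replicate 2 (0.0524). The citric acid cycle, which feeds the chain, had 1 of 14 genes higher, against 16.2% of all tested genes, and a median of -0.00. The gene that rose was Suclg1 (0.47 ± 0.09 SE, adjusted p = 0.00517), a subunit of succinyl-CoA ligase.

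Of 17 tested regulators of mitochondrial biogenesis and gene expression, 1 was higher and 3 were lower, with a median of -0.09, against 16.2% and 15.5% of all tested genes. Ppargc1a, the coactivator best known for driving these genes, had 0 counts in every library. Lrpprc, which stabilises mitochondrial mRNAs, had a log2 fold change of -0.31 ± 0.08 and Tfb2m, a mitochondrial transcription factor, of -0.36 ± 0.11 (SE, adjusted p = 0.0202 and 0.0297). Gabpb2 had a value of -0.29 ± 0.09 (SE, adjusted p = 0.0362), which was 0.08 with the trend removed (adjusted p = 0.468). The call of Lrpprc was also lost with the trend removed (0.196). Each of these 3 calls was lost without some of the libraries. For Lrpprc these were DMSO replicate 2 (0.0725), DMSO replicate 3 (0.0622) and BPAP replicate 1 (0.0656). For Tfb2m they were DMSO replicate 1 (0.057), DMSO replicate 3 (0.111), BPAP replicate 1 (0.0755) and BPAP replicate 2 (0.0586). For Gabpb2 they were all but BPAP replicate 3 (0.0558 to 0.0965). The gene that rose was Esrra (0.50 ± 0.17 SE, adjusted p = 0.0452), an orphan nuclear receptor, named after its value was seen. Its call was also lost, with 0 regulators higher, under limma-trend on FPKM and without DMSO replicate 1, DMSO replicate 3 or BPAP replicate 2.

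Of the 13 mitochondrially encoded partners of the same complexes, 5 were lower and the other 8 did not pass, with a median of -0.49. Over all tested genes, 15.5% were lower. In the fits without 1 library, the count of lower genes among the 13 ran from 1 to 7. It was 2, 1 and 1 without BPAP replicates 1, 2 and 3. With the trend with exon length and GC content removed, 4 were lower, at a median of -0.50, against 10.9% of all genes. DMSO replicate 1, with 10.8% of its counts in these genes, was the highest library for 12 of the 13. The lower genes included mt-Cytb, the mitochondrial subunit of complex III, at 6818, 4454 and 4500 CPM in DMSO and 3236, 2811 and 2882 CPM in BPAP (-0.82 ± 0.16 SE, adjusted p = 0.0061). Of its 9 nuclear complex III partners, 7 were higher over the same libraries, and 3 with the trend removed. Any link between them and mt-Cytb was not tested.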

How the data were processed

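The authors deposited 1 table that gives every gene a count and an FPKM for each of the 6 libraries, per the file headers. The deposited counts are whole numbers, and the deposited FPKM values follow from them, since count over FPKM and library total gave the same length in every library. The submitters' processing notes name HISAT2 2.0.4, StringTie 1.3.3b, edgeR and build GRCm38, with no role given. Per the labels' protocols, RNA was extracted with TRIzol and libraries were made with a VAHTS kit. The sources used here do not give the annotation release or strand setting.

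The edgeR default filter left 11711 of 34745 genes, while 18090 had no count. BPAP was compared with DMSO with a robust quasi-likelihood fit (edgeR 4.0.16 in R 4.3.3, TMM scaling, treatment only), and 2-sided p-values were adjusted by Benjamini and Hochberg's method across the tested genes, with a threshold of 0.05. CPM values are TMM-scaled. Standard errors are the log2 fold change over the root of F. The biological coefficient of variation was 0.127, with 4 residual degrees of freedom. Exon length (each base once) and GC content came from GENCODE M21, and the trend was removed per library by lowess fits (span 0.3) used as offsets. The script was tested on simulated counts. The alternatives were DESeq2 size factors, upper quartile factors, no mitochondrially encoded genes, no filter, DESeq2 1.42.0, limma-voom and limma-trend (limma 3.58.1, log2(FPKM + 1) for genes with a mean FPKM of at least 1), a replicate term, trend removal with and without it, and leaving out each library. Named genes were all Sdh genes, Cyc1, Cycs, the complex I core genes, Uqcrfs1, Atp5a1, Atp5b, listed paralogs, and per complex up to 5 called members with the smallest p and the 2 members with the largest p. Up to 3 called genes were named per other list, and 1 gene that the rule names is not reported here. Members named outside this rule, such as Ndufaf4, Cox7c and Ndufa8, were chosen after their values were seen. The members, lists and tests were chosen with earlier results of these data known. Replicate numbers are not said to pair libraries.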

Additional observations from a re-analysis of the deposited data

How the results depend on the processing

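Of the 52 members higher in BPAP, 20 passed under all 16 alternatives and 35 in each of the 6 fits without a library. After removal of the trend with exon length and GC content, 26 members were higher (25 of the 52 and Atp5l) and 1 lower. By group these were 11 of the complex I subunits, 3 of complex III with cytochrome c, 5 of complex IV, 5 of complex V and 0 of complex II. The assembly factors outside the member rule then had 1 lower, ubiquinone synthesis 3 higher, the citric acid cycle 2 lower and the biogenesis regulators 2 higher. In that fit 11.8% of all genes were higher and 10.9% lower. The lists held 43, 11, 14 and 17 tested genes. Of the 17 regulators, 2 were also lower, and their median was 0.08, against -0.09 in the main fit. With a replicate block added to that correction, 32 members were higher and 1 lower, with 15, 3, 6 and 0 for complexes I, III, IV and II and 1 complex I assembly factor, and the other lists had the same counts of 1, 3, 2 and 2. Deviations of libraries with the same replicate number had correlations of 0.10, 0.05 and 0.01. Those of libraries with different numbers ran from -0.086 to 0.045. Each BPAP library had its highest value with the DMSO library of its own number, though all values were small. The labels do not say that the numbers pair libraries, so the main fit did not pair them. The replicate block alone gave 58 members higher and 1 lower (Ndufs1), with 3 in complex II. Upper quartile factors gave 2 in complex II, limma-trend on FPKM 1 member lower and 0 biogenesis regulators higher, DESeq2 3 ubiquinone genes, and no filter on low counts 1 mitochondrially encoded gene lower. The summed shares were 1.00% in DMSO and 1.24% in BPAP without mitochondrially encoded counts.

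Without 1 library in turn, members lower ranged from 0 (5 fits) to 1 (Ndufs1, without DMSO replicate 1), complex I assembly factors from 0 (without DMSO replicate 2) to 2, complex II from 0 (without DMSO replicate 1) to 1 and complex V from 5 (without DMSO replicate 1) to 9. Ubiquinone genes higher ranged from 2 to 4, biogenesis regulators from 0 to 1 higher and 0 to 3 lower, and mitochondrially encoded genes lower from 1 to 7.

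Some genes changed sign under some settings, in each case with no call there. With the trend removed, without and with the block, log2 values were -0.097 and -0.092 for Sdhd, -0.22 and -0.22 for Ndufs7, -0.060 and -0.050 for Ndufv1, -0.35 and -0.33 for Ndufa3, -0.25 and -0.15 for Ndufb4, -0.16 and -0.16 for Atp5g2, -0.14 and -0.13 for Atp5sl, -0.16 and -0.16 for Cox6b1, and -0.12 and -0.13 for Cox7a2. Among genes with a call, Gabpb2 (lower) was 0.077 in both, Ndufa8 (higher) -0.060 and -0.057, and Ndufs6 (higher) -0.010 and -0.0082. Cox4i2 was 0.013, 0.019 and 0.014 under upper quartile factors, limma-voom and the replicate block, and Ndufaf1 0.011 under upper quartile factors. Without 1 library in turn, Sdha ranged from -0.13 to 0.020, Cycs from -0.17 to 0.16, Ndufv1 from -0.0093 to 0.21, Ndufa3 from -0.086 to 0.23, Ndufb4 from -0.22 to 0.55, Cox4i2 from -0.20 to 0.13, Atp5sl from -0.037 to 0.096 and Ndufaf1 from -0.047 to 0.011. The cause was not tested in any of these cases.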
